A study of Mus musculus with 162 samples.

Results

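The 7 clock output transcription factors Dbp, Tef, Hlf, Nfil3, Bhlhe40, Bhlhe41 and Ciart were followed across 9 organs and 6 fasting times of the mouse. The members were chosen by gene symbol and not by their measured values, although earlier results of these data were known. All 7 were found among the 53686 gene rows of the count table. The libraries came from 18 male C57BL/6J mice aged 8 to 9 weeks and kept in a 12 h light and 12 h dark cycle. Food was withdrawn 2, 8, 12, 18 or 22 h before collection from 3 mice each, and the 3 mice of the 0 h group ate ad libitum. Each mouse gave the olfactory bulb (OB), the telencephalon with the diencephalon (BRN), the cerebellum (CBL), the brainstem (BST), the stomach (STM), the liver (LIV), the interscapular brown fat (iBAT), and the perigonadal (pgWAT) and posterior subcutaneous (psWAT) white fat. All mice were killed 1.5 to 2 h after lights-off, so the groups were matched for time of day. The fasts of 8 and 12 h began in the light period, those of 18 and 22 h in the dark period before it. Groups of 18 and 22 h therefore differed from 0 h both in the length of the fast and in food missed during that night, and these cannot be told apart. In whole organs, fewer cells of a type and less RNA per cell cannot be told apart either.

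In the molecular clock, CLOCK and BMAL1 (encoded by Arntl) bind E-boxes and drive their own repressors, together with a layer of output factors that carry the rhythm to other genes. DBP, TEF and HLF are the PAR bZIP activators, which bind D-boxes, and NFIL3 (E4BP4) is a bZIP repressor that competes for the same element. BHLHE40 (DEC1) and BHLHE41 (DEC2) are basic helix-loop-helix repressors that compete with CLOCK and BMAL1 at E-boxes, and CIART (CHRONO) represses CLOCK and BMAL1 directly. Dbp is known as one of the genes with the steepest daily rhythm in liver, and in liver and kidney the PAR bZIP factors act on genes of detoxification.

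The promoter windows are shown because the E-box, the element of CLOCK and BMAL1, was unevenly spread over the members. RefSeq promoters (GRCm38.p6, from 250 bases before to 50 after a start site) were at hand for 6 of the 7 members, in 7 windows. The E-box CACGTG, which reads the same on both strands, was in 7.15% of all 32851 windows, and 3 or more copies were in 0.0883%. Ciart held 3 copies, the nearest of them 58 and 44 bases before its start. Bhlhe41 held 1 copy, and each of the 2 Tef windows held 1. The stretches around them follow, 5′ to 3′ on the gene's strand, with the E-box in capitals.
Ciart, chr3:95882252-95882359, minus strand: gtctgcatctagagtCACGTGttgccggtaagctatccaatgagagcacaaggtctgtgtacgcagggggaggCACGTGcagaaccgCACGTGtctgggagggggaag
Bhlhe41, chr6:145865556-145865585, minus strand: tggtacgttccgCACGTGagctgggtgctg
Tef window 1, chr15:81802534-81802563, plus strand: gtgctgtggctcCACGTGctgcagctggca
Tef window 2, chr15:81811264-81811293, plus strand: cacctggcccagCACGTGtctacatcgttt
The Ciart stretch and the second Tef stretch lay outside annotated exons, and the first Tef stretch lay within one. No E-box was found in the windows of Dbp, Hlf and Nfil3. The D-boxes TTATGTAA (0.938% of windows) and TTACGTAA (0.119%) had no match in any member on either strand. The ROR and REV-ERB element AGGTCA (16.3%) was matched on either strand only in Nfil3, 12 bases before its start. Among 13 genes of the core clock loop, 11 had a window and 2, Per1 and Cry1, held an E-box, at most 1 each. These matches describe letters in short windows and not bound sites.

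On GRCm38 the genes lie on 6 chromosomes. Dbp is at chr7:45705088-45710203 on the plus strand, Tef at chr15:81802421-81826863 (plus), Hlf at chr11:90336536-90390895 (minus), Nfil3 at chr13:52967209-52981073 (minus), Bhlhe40 at chr6:108660629-108666925 (plus), Bhlhe41 at chr6:145858243-145865558 (minus) and Ciart at chr3:95878503-95882251 (minus). Of the exonic bases of Dbp, 18.0% overlapped the opposite-strand gene Sphk2, and of those of Bhlhe41, 19.05% overlapped Gm43909. The library kit marks the strand, but whether counting used it is not given in the sources used here, so reads of these overlaps may not be told apart.

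The libraries that the study retained, all but 5 of those sequenced, held 3045840 to 27801700 gene counts (median 8735550), and all 7 members passed the filter on low counts in every organ, with at least 5 counts in each library. Each organ carried its own markers: the summed CPM of Alb, Apoa2 and Fgb was 59659 to 79520 in LIV, and that of Gkn1, Gkn2 and Atp4b was 5770 to 68149 in STM. The fat depots were the most mixed. The sum of the white fat markers Adipoq, Lep and Plin1 ran from 52.4 to 5962 CPM over psWAT libraries. In psWAT replicate 3 of 12 h, the cerebellar markers Pcp2, Gabra6 and Cbln1 summed to 1687 CPM, against at most 0.516 in the other 2 mice of that group. Mouse 3 of the 0 h group also stood apart for the members, as described below, and most tests of members against 0 h are given with and without it.

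The members differed in where they were expressed. Levels between organs are given as CPM under 1 TMM scaling over all retained libraries, and organs are ranked by their mean log2 level. Each of the 36 organ pairs was tested with edgeR's quasi-likelihood test with the mouse as a block. In these tests 198 of the 252 member pairs were called, and 74.6% of all gene pairs were, so a difference between organs was common to most genes. The ranking therefore rests on the neighbours: of the 8 neighbouring pairs in each order, 1 differed at an adjusted p under 0.05 for Dbp, 2 for Tef and Bhlhe40, 3 for Hlf, Bhlhe41 and Ciart, and 4 for Nfil3.

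Ciart was highest in the liver by far. It averaged 80.9 ± 51.1 CPM in LIV (SD, n = 18) and 14.6 ± 3.46 in CBL, the next organ (log2 difference 2.30 ± 0.17 SE, edgeR adjusted p = 8.55e-26). BRN followed with 14.6 ± 3.81 and stood above OB with 9.91 ± 2.56 (adjusted p = 0.00586, edgeR). From OB over STM (12.0 ± 7.92) and BST (9.40 ± 1.93) to iBAT (9.00 ± 3.27) no step passed. The white fats were lowest, psWAT at 4.47 ± 3.38 and pgWAT at 4.05 ± 2.07, and iBAT was above psWAT by 1.02 ± 0.19 on the log2 scale (adjusted p = 8.03e-07, edgeR).

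Bhlhe41 had nearly the opposite place for LIV. Its highest level was in BST (54.7 ± 2.78 CPM, n = 18), followed by CBL (47.9 ± 4.68) and OB (47.7 ± 3.53), and these neighbours passed no test of their difference. BRN (36.1 ± 7.25) lay between OB and the fats, and pgWAT, iBAT and psWAT held 25.8 ± 12.1, 21.4 ± 12.4 and 18.5 ± 11.9. STM had 14.5 ± 5.80 and LIV 4.31 ± 1.73, a log2 difference of 1.72 ± 0.19 between these last organs (edgeR adjusted p = 6.21e-15). Its partner Bhlhe40 was highest in LIV (150.9 ± 43.1), above iBAT (125.4 ± 70.6, adjusted p = 0.0268, edgeR). The other organs ran from OB (104.1 ± 12.2) over CBL (84.8 ± 12.3), BRN (79.5 ± 26.1), STM (62.2 ± 14.6), BST (59.4 ± 3.46) and psWAT (54.8 ± 23.6) to pgWAT (57.6 ± 34.2), and of these neighbours only BRN and STM differed (adjusted p = 0.0428, edgeR).

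Hlf was a transcript of the nervous system first: BRN had 163 ± 32.8 CPM (n = 16), OB 142.6 ± 11.2, CBL 141.7 ± 11.1 and BST 104.9 ± 7.83. CBL stood above BST by 0.43 ± 0.16 on the log2 scale (edgeR adjusted p = 0.0176). LIV (101.5 ± 14.8) and iBAT (91.1 ± 26.1) passed no test against BST or each other. The larger steps came after iBAT, which was 0.94 ± 0.17 on the log2 scale above STM (47.7 ± 22.2, edgeR adjusted p = 3.46e-07), and STM was 0.90 ± 0.17 above pgWAT (25.4 ± 8.33, adjusted p = 8.92e-07). In psWAT the level was 23.9 ± 19.5, which passed no test against pgWAT. Tef was spread more evenly, with CBL (451 ± 27.3), iBAT (455 ± 96.6), LIV (444 ± 93.6), BRN (404 ± 44.7) and OB (354 ± 17.1) not separable as neighbours. It was lower in BST (266 ± 13.2), 0.42 ± 0.11 below OB (adjusted p = 0.000617, edgeR), then in pgWAT (249 ± 58.9), STM (230 ± 72.5) and psWAT (197 ± 90.7).

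Nfil3 was highest in LIV (39.2 ± 15.2 CPM, n = 18), then in iBAT (31.0 ± 13.9), OB (23.3 ± 3.49), CBL (16.5 ± 2.47) and pgWAT (12.2 ± 7.74), and each of these 4 steps passed the edgeR test (adjusted p = 0.0265, 0.0408, 0.00344 and 0.00181). BRN (9.51 ± 2.28), BST (7.44 ± 1.08), psWAT (6.87 ± 3.19) and STM (5.78 ± 3.27) followed without a step that passed. Dbp had the flattest order: LIV 152.3 ± 89.2, BRN 115.3 ± 21.6, pgWAT 122.7 ± 59.5, STM 121.7 ± 59.4, OB 94.7 ± 23.6, CBL 89.2 ± 19.1, iBAT 86.1 ± 39.6, psWAT 69.7 ± 29.2 and BST 52.8 ± 10.4. Only the last step, psWAT over BST, passed for Dbp (0.41 ± 0.14, adjusted p = 0.00681, edgeR), and it did not with limma-voom weights by organ (adjusted p = 0.0793). With these weights the neighbouring steps that passed numbered 0 for Dbp, 3 for Tef, Bhlhe40 and Ciart, 4 for Hlf and Nfil3, and 6 for Bhlhe41. Organ levels depend on the scaling, since LIV libraries had a median scaling factor of 0.622 and psWAT libraries of 1.36. By plain CPM the first place of Dbp passed from LIV to BRN and that of Nfil3 and Bhlhe40 from LIV to OB, while the first places of Tef, Hlf, Bhlhe41 and Ciart held. Per kilobase of exon, the scale on which genes can be compared, Tef was the highest of the 7 members in 7 organs (57.3 ± 3.47 scaled CPM per kb in CBL) and Dbp in STM (40.7 ± 19.8) and pgWAT (40.99 ± 19.9).

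**Figure D1:**
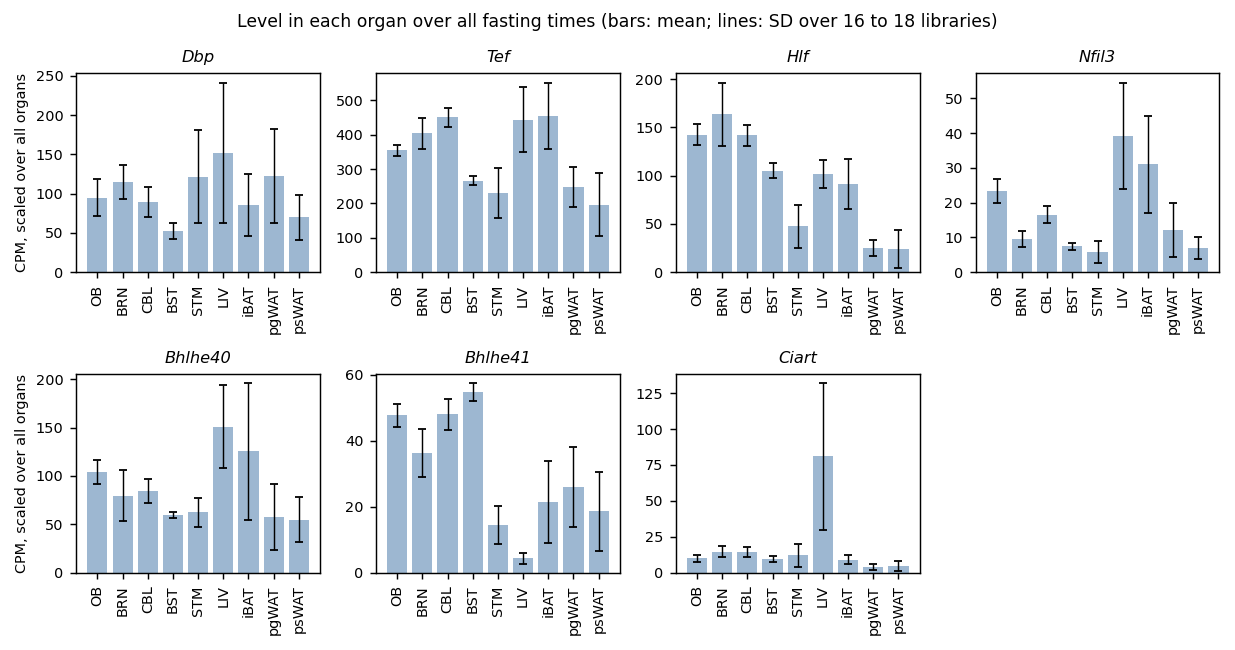
Level of each member in each organ, in CPM under 1 scaling over all organs, with bars for the mean and lines for the SD over 16 to 18 libraries of all fasting times. Ciart rises above all other organs in LIV with 80.9 CPM, Bhlhe41 is lowest in LIV with 4.31 CPM, and Hlf falls from the brain regions to the white fats.

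Fasting time was tested in each organ with edgeR's quasi-likelihood test, and p-values were adjusted over all genes of that organ by the Benjamini-Hochberg method. Values over time are CPM with TMM scaling within the organ, called normalized CPM. Over all 6 times together, 9 of the 63 member and organ pairs changed, where 7.34% of all gene and organ pairs did. These were Dbp in OB (adjusted p = 0.000837) and STM (0.0127), Tef in STM (0.0259) and LIV (0.0421), Nfil3 in LIV (0.00807), Bhlhe40 in CBL (0.0214), and Ciart in OB (0.00114), CBL (0.0158) and STM (0.0217), all by edgeR. In fits without 1 mouse the calls of Tef were lost in 14 for LIV and 6 for STM, that of Ciart in STM in 4, and that of Bhlhe40 in CBL in 4. Read by organ, OB had 2 of 7 members called against 15.4% of its genes, CBL 2 against 2.99%, STM 3 against 6.55% and LIV 2 against 16%. Without mouse 3 of 0 h the count was 17 of 63, where 8.34% of all pairs were called. The organs of 1 mouse are not independent, so these counts do not stand for separate experiments.

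The 0 h mouse 3 was low for Dbp and Ciart in nearly all its organs. Its Dbp level in LIV was 20.3 normalized CPM against 119.4 and 120.3 in the other 0 h mice, in iBAT 17.0 against 59.7 and 66.0, in STM 33.04 against 125.1 and 101.8, and in pgWAT 35.001 against 118.9 and 181. It was the lowest of the 3 for Dbp in 9 of 9 organs, although by little in OB (103.9 against 113.7 and 107) and BRN (121.9 against 122.9 and 126.5), and for Ciart in 8 of 9. Its Ciart level in LIV was 9.30 against 54.2 and 65.3. Nfil3 was highest of the 3 in this mouse in 5 of 9 organs, with 40.9 in pgWAT against 11.1 and 11.8, and 9.74 in STM against 2.90 and 3.28. Its Dbp level lay within or below the range of the 8 h mice in 7 organs. No label sets this mouse apart from the other 2, and what set it apart was not tested.

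Dbp, the PAR bZIP activator known for its steep rhythm, was lowest at 8 h and highest at 18 h. The mean was lowest at 8 h in 8 of 9 organs and highest at 18 h in 6. In OB the 3 mice had 113.7, 107 and 103.9 normalized CPM at 0 h, 123.7, 87.8 and 101.1 at 2 h, 81.2, 85.3 and 71.6 at 8 h, 100, 93.4 and 84.7 at 12 h, 187.7, 145.7 and 141.5 at 18 h and 152.5, 126.1 and 123.7 at 22 h. All late libraries (18 and 22 h) of OB thus lay above those of 8 and 12 h. In LIV the values were 119.4, 120 and 20.3 at 0 h, 110, 49.3 and 68.6 at 2 h, 37.5, 31.9 and 58.6 at 8 h, 89.1, 89.96 and 71.7 at 12 h, 232.03, 214 and 134.5 at 18 h, and 85.4, 120.7 and 68.2 at 22 h. The 18 h livers were the highest, and those of 22 h overlapped those of 0 and 12 h. In STM, Dbp was 50.2, 33.4 and 28.4 at 8 h, 104.7 and 103.2 at 12 h, 200, 151.95 and 181 at 18 h and 166.1, 138.6 and 128 at 22 h, so that no late stomach came down to an 8 or 12 h one.

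The comparison of 18 and 22 h with 8 and 12 h uses no 0 h library. Of the 63 pairs, 7 were called here and all 7 were higher late (background 6.59%), and without mouse 3, which then enters only the shared spread, 14 were called, again all higher (background 7.77%). Dbp was positive in all 9 organs, by 0.10 to 1.36 on the log2 scale, and was called in OB (0.76 ± 0.08, edgeR adjusted p = 5.74e-05) and STM (1.36 ± 0.26, adjusted p = 0.0214). The STM call, unlike that in OB, was lost in 4 of the 17 fits without 1 mouse, although the difference stayed at 1.28 or more. Without mouse 3 it was also called in CBL (0.50 ± 0.07, adjusted p = 0.000376), LIV (1.15 ± 0.23, adjusted p = 0.0167) and iBAT (0.71 ± 0.23, adjusted p = 0.0347). In OB this contrast moved 29.3% of all genes, so 2 of 7 members called there stand near the background. It moved 0.795% in CBL, where 2 members were called, and 3.96% in STM, where 3 were.

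**Figure D2:**
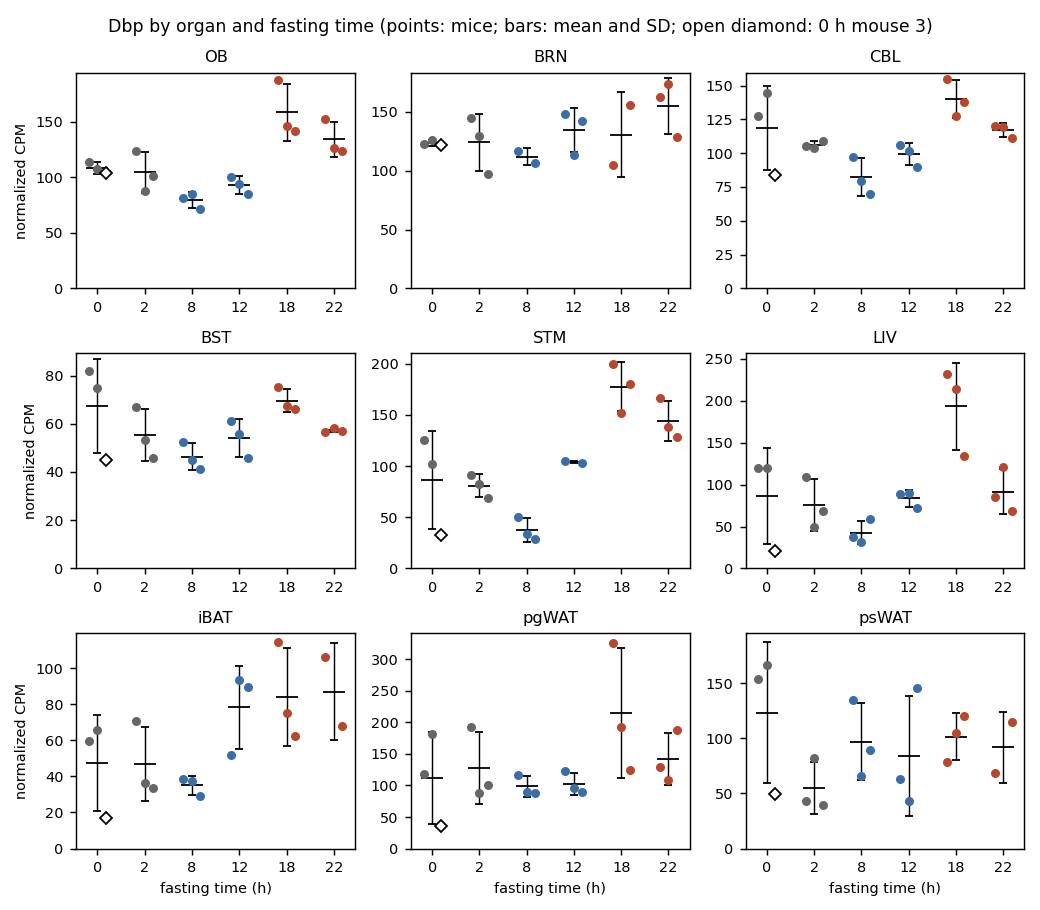
Dbp in normalized CPM (y axes, scaled within each organ and starting at 0) against fasting time in h, 1 panel per organ, with points for mice, bars for the mean and SD, and the 0 h mouse 3 as an open diamond. In OB, STM and CBL the 8 h points lie below all 18 h points, and in LIV the open diamond at 20.3 lies below all other points.

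Ciart, the repressor of CLOCK and BMAL1, moved as Dbp did although it stands on the repressing side. Its mean was lowest at 8 h in 9 of 9 organs and highest at 18 h in 5. In OB it was 9.98, 12.1 and 11.5 normalized CPM at 0 h, 9.24, 8.38 and 8.68 at 8 h, 10.1, 9.47 and 7.59 at 12 h, 12.2, 16.5 and 17.1 at 18 h, and 15.3, 16.3 and 16.5 at 22 h. In CBL it was 13.6, 17.0 and 10.5 at 8 h, 16.7, 13.0 and 13.6 at 12 h, 25.2, 26.5 and 22.2 at 18 h, and 22.5, 20.3 and 18.0 at 22 h. In both regions every late library was above every 8 and 12 h library. In STM the 8 h mice had 3.30, 3.67 and 2.56, the 18 h mice 23.5, 11.7 and 24.4 and the 22 h mice 13.0, 14.8 and 18.5. LIV held the highest values, 19.1, 12.9 and 27.9 at 8 h against 66.8, 58.3 and 138.6 at 18 h and 37.8, 82.96 and 90.03 at 22 h, with 1 late liver inside the 12 h range of 27.97 to 55.4.

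For 18 and 22 h against 8 and 12 h, Ciart was positive in all 9 organs (log2 0.36 to 1.78). It was called in OB (0.81 ± 0.09, edgeR adjusted p = 5.74e-05), CBL (0.66 ± 0.10, adjusted p = 0.00665) and STM (1.78 ± 0.36, adjusted p = 0.0243). The STM call was lost in 6 of the 17 fits without 1 mouse. Without mouse 3 it was also called in BST (0.43 ± 0.10, adjusted p = 0.0334), LIV (1.41 ± 0.33, adjusted p = 0.0351) and iBAT (0.65 ± 0.22, adjusted p = 0.0415). In OB, STM and LIV the lane code of the library name separated the libraries of 0 and 2 h and 2 of the 3 of 8 h from the remaining 8 h library and those of 12, 18 and 22 h. Within the second lane, against 12 h and that 8 h library, the difference was 0.82 for Ciart and 0.83 for Dbp in OB and 1.56 for Dbp in STM, all called, whereas Ciart in STM (1.93) was no longer called. CBL came from 1 lane.

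**Figure D3:**
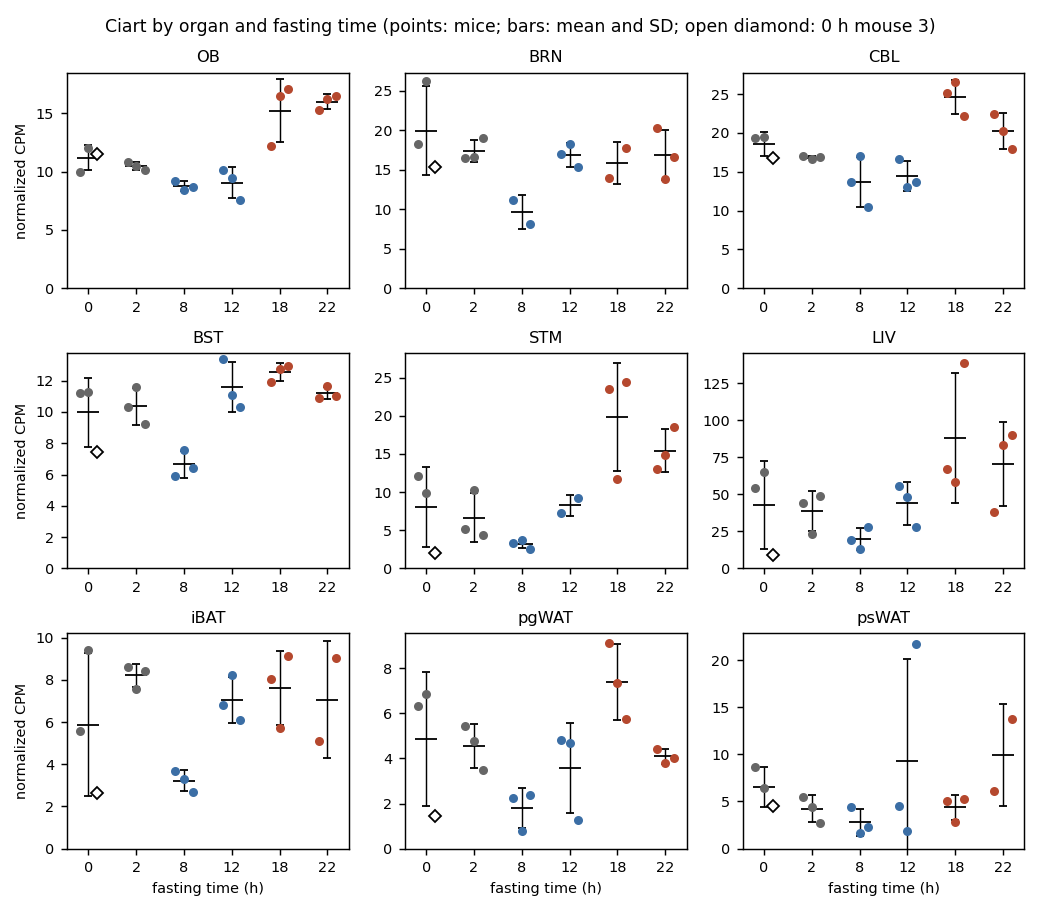
Ciart in normalized CPM (y axes, scaled within each organ and starting at 0) against fasting time in h, 1 panel per organ, with points for mice, bars for the mean and SD, and the 0 h mouse 3 as an open diamond. The 8 h mice lie lowest in most panels, for example at 2.56 to 3.67 in STM against 11.7 to 24.4 at 18 h.

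Against 0 h the picture depended on mouse 3. For 18 and 22 h together, 6 of 63 pairs were called (background 6.44%), 4 higher and 2 lower. In OB, where 1.95% of all genes were called, Dbp was higher by 0.43 ± 0.10 (edgeR adjusted p = 0.0426) and Ciart by 0.49 ± 0.12 (adjusted p = 0.0372). Without mouse 3 only 2 pairs were called (background 3.81%), Ciart in OB (0.52, adjusted p = 0.0276) and Bhlhe41 in iBAT, and Dbp in OB missed the threshold (0.40, adjusted p = 0.0572). The call of Ciart in OB was lost without mouse 1, 2, 15, 16 or 18 (edgeR adjusted p up to 0.233), and that of Dbp in 10 of the 18 fits without 1 mouse (up to 0.176). Both were also lost with the lane covariate, and as the 0 h bulbs shared one lane and the late bulbs the other, lane and time cannot be told apart in this contrast. In LIV the Dbp difference was 0.61 ± 0.46 with mouse 3 and 0.15 ± 0.32 without it, and in STM 0.88 ± 0.30 and 0.50 ± 0.21, none of them called. Late Dbp levels in LIV were thus not shown to exceed those of the other 0 h mice. In STM every late library lay above every 0 h one (lowest 128.3 against highest 125.1), although this difference was not called. At 18 h alone it was called there with all mice (1.03 ± 0.34, edgeR adjusted p = 0.0486), where lane and time cannot be told apart either.

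For 8 and 12 h against 0 h, 1 of 63 pairs was called (background 1.9%), and without mouse 3 it was 3 (background 1.41%). Dbp was lower in CBL (-0.58 ± 0.09, edgeR adjusted p = 0.00393) and BST (-0.63 ± 0.12, adjusted p = 0.0139) only without mouse 3, and with it the same differences were -0.39 and -0.42 (adjusted p = 0.263 and 0.483). Taken 1 time at a time, 11 of 315 comparisons with 0 h were called (background 2.42%). Of these 7 were at 18 h, all higher, 2 at 22 h, both lower, and 1 each at 2 and 8 h, both higher. Those at 18 h were in STM, OB and LIV, where 2333 of 16281, 2012 of 16742 and 1398 of 14023 genes were called. Those at 22 h were Bhlhe40 and Bhlhe41 in iBAT, where 5960 of 14529 genes were called, so they do not stand out. Those at 2 and 8 h were Nfil3 in LIV, where 20 and 66 of 14023 genes were called. Leaving out mouse 3 brought 5 calls at 8 h, 4 of them lower, and left 4 at 18 h. The share over all genes at single times is not given without mouse 3, so these counts have no background.

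To treat the mouse as the replicate, the log2 normalized CPM of each member was averaged over the organs of each mouse as a deviation from the organ mean, and the 18 mice were tested with limma over 11679 genes. For Dbp the deviations were 0.30, 0.37 and -0.94 at 0 h, -0.29, -0.61 and -0.63 at 8 h, 0.00, -0.08 and 0.01 at 12 h, 0.84, 0.46 and 0.41 at 18 h, and 0.22, 0.35 and 0.21 at 22 h. For Ciart they were 0.28, 0.41 and -0.75 at 0 h, -0.62, -0.94 and -0.80 at 8 h, 0.09, -0.06 and -0.09 at 12 h, 0.57, 0.26 and 0.64 at 18 h, and 0.27, 0.28 and 0.55 at 22 h. The 12 h mice lay between those of 8 h and the late ones. At 2 h the deviations were 0.12, -0.26 and -0.39 for Dbp and 0.06, 0.0009 and -0.13 for Ciart. Among the fasted mice the low level of Ciart was thus that of 8 h. For Dbp a 2 h mouse lay below an 8 h one (-0.39 against -0.29). For both genes mouse 3 stood with the 8 h mice and away from its own group.

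Over the 6 times, 3 of 7 members changed in these mouse means, near the background of 24%: Ciart (limma adjusted p = 0.00510), Bhlhe40 (0.00636) and Bhlhe41 (0.0227). Dbp (0.0674), Nfil3 (0.0807), Tef (0.269) and Hlf (0.590) did not pass. Without mouse 3, 6 of 7 passed at a background of 24.1%, Ciart (limma adjusted p = 5.46e-05) and Dbp (0.000579) foremost, and Hlf did not (0.277). For 18 and 22 h against 8 and 12 h, 2 of 7 were called (background 8.28%), Ciart (0.83 ± 0.15, limma adjusted p = 0.00563) and Dbp (0.68 ± 0.19, adjusted p = 0.0415). All 6 late mice were above all 6 of 8 and 12 h for both. The call of Ciart held in all 18 fits without 1 mouse, and that of Dbp was lost in 12 of them (limma adjusted p up to 0.110). Without mouse 3 Nfil3 was called too and was lower late (-0.34, adjusted p = 0.0385), at a background of 8.88%.

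Against 0 h, the mouse means gave 1 of 7 members for 18 and 22 h (background 21.4%) and 1 of 7 for 8 and 12 h (background 0.188%), Bhlhe40 in both. Without mouse 3, 18 and 22 h again gave only Bhlhe40 (background 15.3%), and 8 and 12 h gave only Ciart (-0.75, limma adjusted p = 0.00709, background 0.24%), with Dbp at -0.60 (adjusted p = 0.0511). Without it the late means of Dbp and Ciart differed from 0 h by 0.08 each (adjusted p = 0.700 and 0.658), and those at 8 h alone by -0.85 (adjusted p = 0.0134) and -1.13 (adjusted p = 0.000237). With all mice the 8 h differences were not called (limma adjusted p = 0.679 for Dbp and 0.336 for Ciart), and mouse 3 was singled out from the levels of these genes, so the values without it describe the other mice and are no independent test.

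**Figure D4:**
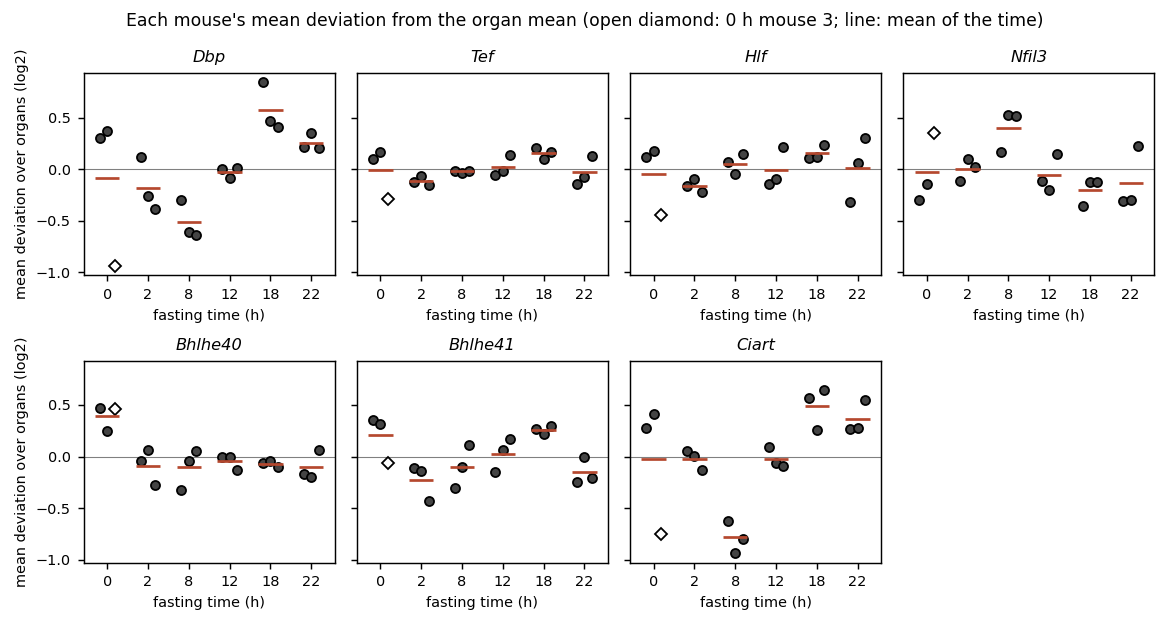
Mean deviation of each mouse from the organ mean (log2, y axes) against fasting time in h, for the 7 members, with points for the 18 mice, an open diamond for the 0 h mouse 3 and a line for the mean of each time. For Ciart the 8 h mice lie at -0.62 to -0.94 and the 18 and 22 h mice at 0.26 to 0.64, and for Bhlhe40 the 0 h mice lie at 0.25 to 0.47, above all others.

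Nfil3, the repressor at the element that DBP, TEF and HLF activate, rose in the liver early in the fast. LIV held 12.1, 12.9 and 19.6 normalized CPM at 0 h, 25.4, 47.1 and 34.2 at 2 h, 24.2, 39.1 and 34.4 at 8 h, 22.9, 19.3 and 26.3 at 12 h, 14.5, 17.5 and 22.5 at 18 h and 24.8, 22.1 and 20.99 at 22 h. All livers of 2, 8 and 22 h were above all of 0 h, and those of 12 and 18 h overlapped them. At 12 and 22 h the level was above 0 h by 0.62 and 0.61 on the log2 scale, not called (edgeR adjusted p = 0.100 and 0.159). The difference from 0 h was 1.27 ± 0.24 on the log2 scale at 2 h (edgeR adjusted p = 0.0372) and 1.14 ± 0.24 at 8 h (adjusted p = 0.0440). Without mouse 3 these were 1.51 (edgeR adjusted p = 0.0334) and 1.38 (adjusted p = 0.0157). For 8 and 12 h together it was 0.88 ± 0.21 (adjusted p = 0.0166) and, without mouse 3, 1.12 ± 0.24 (adjusted p = 0.00819), where 8.89% of all liver genes were called. Leaving out mouse 1 or mouse 2, the other 0 h mice, gave 0.75 and 0.79, which were not called. The 12, 18 and 22 h livers and 1 of 8 h were in the other lane from the 0 h ones, while those of 2 h and the other 2 of 8 h shared their lane.

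In other organs Nfil3 passed no test with all mice. Its STM level was 2.90, 3.28 and 9.74 at 0 h, 6.00, 8.93 and 11.6 at 8 h and 2.22 and 2.88 at 12 h, and it changed over the 6 times only without mouse 3 (edgeR adjusted p = 0.0305). The mean was highest at 8 h in 4 of 9 organs. In the mouse means it was 0.16, 0.53 and 0.51 at 8 h and 0.35 in the 0 h mouse 3, the mice in which Dbp and Ciart were low. Other mice went another way: the 22 h mouse 18 was at 0.23, with Dbp at 0.21 and Ciart at 0.55. The 2 h mouse 6 had Dbp at -0.39 and Nfil3 at 0.02. Counted over the retained libraries of 18 mice as deviations from organ means, Nfil3 correlated with Dbp at r = -0.36, negative in 8 of 9 organs, the exception being psWAT (0.59). This correlation is a description, since libraries of 1 mouse and of 1 time are not independent.

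Tef and Hlf, the other PAR bZIP activators, changed mainly in the stomach. Tef in STM was 156.7, 185 and 95.4 normalized CPM at 0 h, 172, 187.9 and 156.5 at 2 h, 138.5, 156.1 and 135.9 at 8 h, 184 and 191.4 at 12 h, 310, 232.2 and 341 at 18 h, and 222, 232.04 and 271 at 22 h. Every late stomach was above every earlier one. The late level was higher than at 0 h by 0.87 ± 0.20 on the log2 scale (edgeR adjusted p = 0.0108) and higher than at 8 and 12 h by 0.70 ± 0.17 (adjusted p = 0.0350). The second of these calls was lost within the lane, with the lane covariate, with the replicate block, with the excluded libraries added and in 8 of the 17 fits without 1 mouse. Hlf in STM was 24.1, 36.04 and 8.56 at 0 h, 27.4, 22.3 and 28.8 at 8 h, 39.6 and 41.2 at 12 h, 72.3, 46.2 and 71.7 at 18 h and 38.5, 52.9 and 83.1 at 22 h, with 1 late stomach below the 12 h ones. It was higher late than at 0 h by 1.40 ± 0.34 (adjusted p = 0.0149, edgeR). This contrast moved 15.3% of all stomach genes, and 2 of 7 members were called.

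Both calls of 18 and 22 h together against 0 h were lost without mouse 3, where Tef differed by 0.65 ± 0.18 (edgeR adjusted p = 0.0571) and Hlf by 1.02 ± 0.27 (adjusted p = 0.0515). At 18 h alone, 4 pairs over all members and organs were called against 0 h without mouse 3. Marker levels of the stomach libraries moved with fasting time. The skeletal muscle markers Acta1, Ckm and Myh4 summed to 191.8 to 1348 CPM at 0 h and 1282 to 2885 at 18 and 22 h, and the gastric markers to 22558 to 68149 and 5770 to 29500. Their part in the stomach results was not tested. The lane was also shared by the late stomachs and not by those of 0 h, so that lane and time cannot be told apart there.

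In LIV, Tef was 266, 265 and 174 at 0 h and 419, 316 and 363 at 18 h, a difference of 0.64 ± 0.16 (edgeR adjusted p = 0.0168), and 245, 256 and 263 at 22 h, back within the 0 h range. Without mouse 3 the 18 h difference was 0.46 and was not called (edgeR adjusted p = 0.0785). The test over the 6 times passed without mouse 3 (adjusted p = 0.0324, edgeR) but was lost in 14 of the 18 fits without 1 mouse. No comparison of Tef or Hlf over fasting time passed in the brain regions OB, BRN, CBL or BST, and their late differences from 0 h ran from -0.06 to 0.11 there. In psWAT both spread widely (late differences -0.22 ± 0.52 for Tef and -0.66 ± 0.81 for Hlf), along with the white fat markers given above, whose part in it was not tested. The highest libraries of both, 497 and 116.8 normalized CPM, were psWAT replicate 3 of 12 h, the one with cerebellar markers.

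Bhlhe40 and Bhlhe41, the E-box repressors, were lower at 18 and 22 h together than at 0 h in brown fat. Bhlhe40 in iBAT was 166.1, 103.7 and 217 normalized CPM at 0 h, 86.2, 72.5 and 32.8 at 2 h, 32.6, 93.7 and 99.6 at 8 h, 64.5, 163.7 and 91.7 at 12 h, 61.7, 85.4 and 56.7 at 18 h and 38.9 and 59.9 at 22 h. Every late library was below every 0 h one, by -1.48 ± 0.40 on the log2 scale (edgeR adjusted p = 0.0201). Bhlhe41 in iBAT was 20.2, 28.8 and 26.7 at 0 h, 17.6, 10.8 and 6.80 at 18 h and 9.88 and 4.01 at 22 h, again without overlap, by -1.52 ± 0.41 (adjusted p = 0.0194). This contrast moved 20.9% of all iBAT genes, so the 2 of 7 members called stand near the background. Without mouse 3 Bhlhe41 was still called (-1.48, adjusted p = 0.0425) and Bhlhe40 was not (-1.21, adjusted p = 0.0674). The Bhlhe41 call was also lost without 0 h mouse 2 (-1.43) or 22 h mouse 18 (-1.22), and the Bhlhe40 call without 22 h mouse 17 (-1.36). The skeletal muscle markers in iBAT, 52.5 to 1821 CPM at 0 h and 175 to 1212 at 18 and 22 h, overlapped between the groups, and the brown fat markers Ucp1, Cidea and Cox7a1 were at 6160 to 10954 and 6957 to 12168.

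In pgWAT, Bhlhe40 was 123.7, 108 and 158 at 0 h, and of the 15 later libraries the highest was 102.4. The late difference was -1.39 ± 0.28, close in size to that of iBAT, and missed the threshold over all genes (edgeR adjusted p = 0.0727), in an organ where 1 gene of 16412 passed and 3567 had an unadjusted p under 0.05. The mouse means carried the fall of Bhlhe40 with n = 18: the 0 h mice were at 0.47, 0.25 and 0.46 and the other 15 between -0.33 and 0.07. The late difference was -0.48 ± 0.09 (limma adjusted p = 0.00115) and, without mouse 3, -0.44 (adjusted p = 0.00795). That at 8 and 12 h was -0.47 (adjusted p = 0.0287) and, without mouse 3, -0.43 (adjusted p = 0.0738). Bhlhe40 is thus the member in which mouse 3 stood with its own group.

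In CBL, Bhlhe40 rose late against 8 and 12 h. It was 106, 91.0 and 96.9 at 8 h, 94.7, 87.8 and 84.8 at 12 h, 124.1, 130 and 126.1 at 18 h and 107, 123.1 and 117.6 at 22 h, with every late cerebellum above every one of 8 and 12 h (0.38 ± 0.06, edgeR adjusted p = 0.00976). The 0 h cerebella were at 112.5, 105.3 and 86.6 and overlapped the late ones, and the late difference from 0 h was not called (0.26, adjusted p = 0.0989, edgeR). Bhlhe41 was highest at 18 h in 7 of 9 organs, but passed against 0 h only in STM at that time (1.04 ± 0.31, adjusted p = 0.0331, edgeR), a call that was lost without mouse 3 (0.84, adjusted p = 0.121), with 22.7, 14.3 and 25.9 against 11.6, 12.1 and 6.79.

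**Figure D5:**
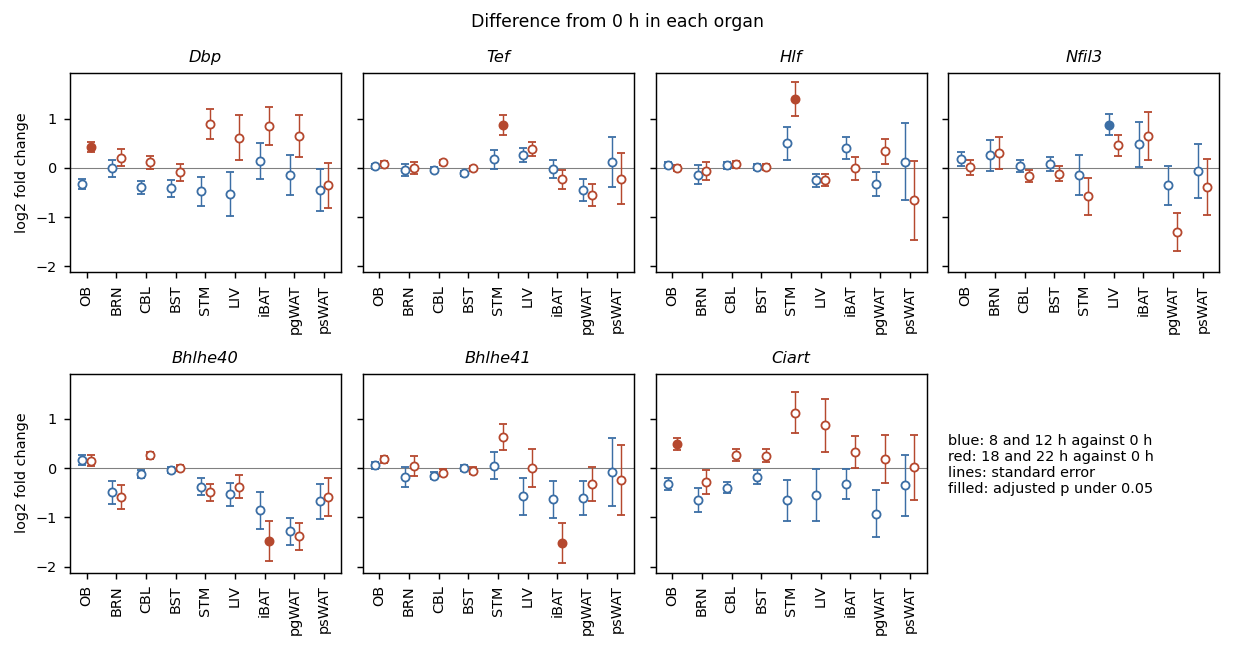
Log2 difference from 0 h (y axes) in each organ, for 8 and 12 h (blue) and 18 and 22 h (red), 1 panel per member, with lines for the SE and filled points where the edgeR adjusted p was under 0.05. Filled red points mark Dbp and Ciart in OB, Tef and Hlf in STM, and Bhlhe40 and Bhlhe41 in iBAT, and the filled blue point marks Nfil3 in LIV.

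Whether the late response differed between organs was tested directly, in 1 edgeR fit of all libraries with the mouse as a block. It differed for 6 of 7 members, where 29% of all genes did. The adjusted p was 0.000142 for Bhlhe40 (edgeR, as for the others), 0.00291 for Tef, 0.0119 for Dbp, 0.0137 for Nfil3, 0.0158 for Hlf and 0.0266 for Bhlhe41. Ciart did not pass (adjusted p = 0.0946). Bhlhe40 ran from -1.48 in iBAT and -1.39 in pgWAT to 0.26 in CBL, and Tef from -0.56 in pgWAT to 0.87 in STM. The result for Dbp needed the block, since without it the adjusted p was 0.239. Nfil3 did not pass without the white fats (edgeR adjusted p = 0.202), nor did Hlf (0.0715) and Bhlhe41 (0.0628) with the excluded libraries added. Ciart passed without the white fats (adjusted p = 0.0159, edgeR), without psWAT replicate 3 of 12 h (0.0270), by total counts (0.0486) and with limma-voom (0.0433). Of all genes, 8465 of 20793 passed without the white fats and 7373 of 22112 without that psWAT library. With limma-voom all 7 members passed with all mice, where 8826 of 22113 genes did. Ciart did not pass in 12 of the 18 such fits without 1 mouse. Without mouse 3 it was farthest from passing (limma-voom adjusted p = 0.333) and Dbp passed narrowly (0.0481), and Bhlhe41 did not pass without mouse 2 (0.0505) or mouse 18 (0.0932).

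The split of variance is given as a description. Of the variance within organs, a time course common to all organs took 37.3% for Ciart and 31.5% for Dbp, 15.7% for Bhlhe40, 13.6% for Nfil3, 11.4% for Bhlhe41, 5.47% for Tef and 3.59% for Hlf. With the excluded libraries added this share was 24.2% for Ciart, 5.68% for Nfil3, 4.81% for Bhlhe41 and 0.50% for Hlf, and without mouse 8 it was 8.42% for Nfil3. Differences between mice of 1 time that their organs shared took 22.8% for Dbp, and 6.94% without mouse 3. Organ took 86.5% of all variance of Bhlhe41 and 82.3% of that of Hlf, against 32.3% for Dbp.

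Members moved in groups from library to library. Over the retained libraries of 18 mice, as deviations from organ means, Dbp and Ciart correlated at r = 0.74 and Dbp and Tef at 0.60, both positive in 9 of 9 organs. Tef and Hlf reached 0.77, with a Spearman value of 0.52 and 0.96 within psWAT. Bhlhe40 and Bhlhe41 reached 0.53, while Dbp and Bhlhe40 stood at -0.04. Against the core loop, Dbp was at -0.71 with Arntl, which encodes BMAL1, and at 0.70 with Nr1d1, which encodes the repressor REV-ERBα.

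Among 11672 other genes, those most like each member were sought by the same measure. Dbp was most like Nr1d1 (0.70), Ift46 (0.65) and Pcsk4 (0.62), and Ciart like Per1 (0.70), Nr1d1 (0.66) and Nr1d2 (0.55). Tef was most like Per3 and Cry2 (0.81 each) and Dab2ip (0.79), and Hlf like Tmem8b, Plcb1 and Gpld1 (0.78 each). The genes near Bhlhe40 included Mid1ip1 (0.62) and Sc5d (0.61), an enzyme of cholesterol synthesis. Bhlhe41 was most like Dixdc1 (0.62), Bcar1 (0.60) and Ppp1r9a (0.59), and Nfil3 like Ankrd40 and Gpd1 (0.57 each) and Opa3 (0.51). The genes named for Dbp, Ciart and Tef thus included genes of the core loop. The values for Tef include psWAT, where Tef and Hlf stood at 0.96, and are not given without it. Hlf stood at 0.77 with Rora and 0.70 with Per3, and without psWAT at 0.53 and 0.55. The genes named for Hlf then fell to 0.45 to 0.64 and those for Bhlhe41 to 0.31 to 0.47, whereas Dbp and Nr1d1 stood at 0.69.

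Of the 13 genes of the core clock loop, 5 of 13 tested changed over the 6 times in OB, 1 of 13 in CBL, 1 of 12 in STM, 3 of 11 in LIV and 4 of 11 in iBAT (where 28.98% of all genes did), and 0 in the other 4 organs. In OB, Clock (log2 -0.53 for 18 and 22 h against 8 and 12 h, edgeR adjusted p = 0.000882) and Npas2 (-0.35, adjusted p = 0.00341), the partners of BMAL1, were lower late, while Nr1d1 (0.35, adjusted p = 0.000512) was higher, in the direction of Dbp and Ciart. In iBAT, Arntl fell by 2.09 against 0 h (adjusted p = 0.0101, edgeR), and without mouse 3 the difference was -1.47 and was not called (adjusted p = 0.0544). In STM, Per1, a repressor of the loop, was higher late than at 0 h by 1.56 (adjusted p = 0.0155, edgeR) and, without mouse 3, by 1.14 (adjusted p = 0.0331). Without mouse 3 the core loop counts over the 6 times were 6 in OB (where 21.95% of all genes changed), 2 in CBL (3.25%), 6 in LIV (17.07%), 4 in STM (7.04%), 1 in BST (1.24%) and 3 in iBAT (27.9%), and 0 in the other 3 organs. Of the clock kinases and ubiquitin ligases, 1 of 6 changed in OB and 1 of 6 in iBAT, and of 7 further rhythmic genes, 2 in OB, 2 in STM, 1 in LIV and 3 in iBAT. All genes changed at 15.4% in OB, 6.55% in STM and 16% in LIV, so that most of these counts lie near the background.

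Textbook targets of the PAR bZIP factors were counted next, since Dbp and Tef are their activators. All 9 were tested in LIV and 5 changed over the 6 times, where 16% of all liver genes did: Aldh1a1, a retinaldehyde dehydrogenase (edgeR adjusted p = 0.000240), Cyp2a4 (0.0103), Pdxk, the pyridoxal kinase (0.0262), Cyp2a5 (0.0349) and Cyp7a1, the rate-limiting enzyme of bile acid synthesis (0.0465). At 18 and 22 h against 0 h, Aldh1a1 fell by 0.84 (adjusted p = 0.000221, edgeR) and Cyp7a1 by 1.13 (adjusted p = 0.0420), and Alas1, the first enzyme of heme synthesis, rose by 0.65 (adjusted p = 0.0498). Without mouse 3 these were -0.87 (edgeR adjusted p = 0.00101), -1.44 (adjusted p = 0.0170) and, for Alas1, 0.77, which was not called (adjusted p = 0.0686), and 6 of the 9 changed over the 6 times. Against 8 and 12 h, none of the 9 was called in LIV, with a median difference of 0.08, while 378 of 14023 liver genes were. Of the other targets called over time, the late differences from 8 and 12 h were 2.50 for Cyp2a4, 0.60 for Cyp2a5 and 0.08 for Pdxk, none of them called. Dbp itself was not called in LIV with all mice. Of 10 genes taken as a check of fasting, 4 of 8 tested changed in iBAT, 2 of 8 in STM, 2 of 7 in OB, 2 of 6 in CBL and 1 of 10 in LIV, where all genes did at 28.98%, 6.55%, 15.4%, 2.99% and 16%.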

How the data were processed

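RNA-seq was measured in 9 organs of 18 mice. The authors aligned reads with TopHat2 2.1.1 to GRCm38.p5 with Gencode M16, kept uniquely mapped reads with at most 2 mismatches and counted them per gene with HTSeq 0.9.1. The deposited values are raw counts per gene, not normalized. The 5 libraries that the study excluded (BRN of mice 9 and 13, STM of mouse 12, iBAT of mouse 16, psWAT of mouse 17) were left out. Groups came from the labels of organ and fasting time. Mouse numbers follow the replicate numbers within each fasting time, the same in all organs. The mouse block and the mouse means rest on this numbering.

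Genes were kept at a CPM equal to 10 counts at the median depth in at least 3 libraries, and counts were scaled by TMM. Fasting times were tested within each organ with edgeR 4.0.16 (robust quasi-likelihood, R 4.3.3), with Benjamini-Hochberg adjustment over all genes kept and a threshold of 0.05. Organ pairs and the response between organs were tested in 1 fit of all organs with the mouse as a block, and mouse means (genes kept in all organs) with limma 3.58.1. Correlations and variance shares used log2 of normalized CPM with a pseudocount of 0.5 CPM. Alternatives were DESeq2 1.42.0, its size factors, no filter, a log2 fold threshold of 1, all 162 libraries, a lane covariate, a replicate block and leaving out each mouse. The mouse means, limma-voom and quality weights were added after seeing the data. The tests were tried on simulated data first. All 7 members are named, and for other lists the genes with the smallest p in an organ. The members and lists were chosen with earlier results of these data known. P-values within an organ rest on the spread between mice, with 2 or 3 mice per time. PCR reads were counted without molecular identifiers. One marker list and one gene near Bhlhe40 are not reported here.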

Additional observations from a re-analysis of the deposited data

Results flagged for a closer look

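The response at 18 and 22 h against 0 h differed between organs in the edgeR test of all libraries for 6 members, where 29% of all genes did. The adjusted p was 0.0119 for Dbp, 0.00291 for Tef, 0.0158 for Hlf, 0.0137 for Nfil3, 0.000142 for Bhlhe40 and 0.0266 for Bhlhe41. Tef was 0.87 ± 0.20 higher in STM and lower by -0.56 ± 0.22 in pgWAT. Hlf was 1.40 ± 0.34 higher in STM and stood between -0.06 and 0.07 in the 4 brain regions. Nfil3 ran from -1.31 ± 0.39 in pgWAT to 0.64 ± 0.48 in iBAT, and without mouse 3 of the 0 h group these values were -0.41 ± 0.34 and 1.18 ± 0.52, with psWAT lowest at -0.53 ± 0.66. Bhlhe40 ran from -1.48 ± 0.40 in iBAT to 0.26 ± 0.08 in CBL, and Bhlhe41 from -1.52 ± 0.41 in iBAT to 0.63 ± 0.27 in STM. Dbp ran from -0.36 ± 0.45 in psWAT to 0.88 ± 0.30 in STM. Without mouse 3, Dbp was at -0.73 ± 0.44 in psWAT and 0.50 ± 0.21 in STM, Tef at 0.65 in STM and -0.67 in pgWAT, and Hlf at 1.02 in STM. Bhlhe40 then ran from -1.22 in pgWAT and -1.21 in iBAT to 0.32 in OB, with CBL at 0.16, and Bhlhe41 at -1.48 in iBAT and 0.42 in STM.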

How the results depend on the processing

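No difference called in an organ against 0 h or against 8 and 12 h changed its sign under an alternative, and several counts moved. The share over all genes in each setting is not given, so a higher or lower count is no result about the members. For changes over the 6 times (9 of 63 pairs), DESeq2 gave 22, no filter 16, the lane covariate 5 and the fold threshold 4, and leaving out 1 mouse gave 5 to 17. For 18 and 22 h against 0 h (6), these were 11 with DESeq2, 2 with the lane covariate and 3 with the fold threshold, and 2 to 8 without 1 mouse. For 8 and 12 h against 0 h (1), they were 2 with DESeq2, 7 with no filter, 0 with the lane covariate and 0 with the fold threshold, and 0 to 3 without 1 mouse. For 18 and 22 h against 8 and 12 h (7), they were 12 with DESeq2, 12 with no filter, 4 with the lane covariate and 2 with the fold threshold, and 4 to 14 without 1 mouse. For each time against 0 h (11), they were 20 with DESeq2, 21 with no filter and 3 with the lane covariate, and 5 to 13 without 1 mouse. The share of organ pairs called (78.6%) fell to 44.05% with 0 h libraries only. The response between organs (6 members) gave 7 without psWAT replicate 3 of 12 h, where 7373 of 22112 genes passed. With limma-voom it gave 7 with all mice, where 8826 of 22113 genes passed. Without 1 mouse it gave 5 to 7, which was not run with edgeR. In mouse means, the 3 members over the 6 times became 2 to 6, and the 2 for late against 8 and 12 h became 1 to 3. The highest counts over the 6 times, at 8 and 12 h and late against 8 and 12 h came without mouse 3. Calls of Dbp and Ciart in OB and of Bhlhe40 and Ciart in CBL for late against 8 and 12 h held in all 18 fits without 1 mouse, while that of Tef over the 6 times in LIV was lost in 14. In mouse means, the uncalled late differences from 0 h of Hlf (0.13 to -0.07), Tef (0.07 to -0.07) and Nfil3 (-0.13 to 0.06) changed sign without mouse 3. Under plain CPM, 8 of the organ pairs called under both scalings changed sign. The causes were not tested.

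The replicate numbers did not pair the samples, since in each organ some same-numbered libraries had negatively correlated deviations (lowest -0.22 to -0.74), and 2 to 10 libraries of 16 to 18 fitted best with their own number. The mean was highest in iBAT (0.16, against -0.08 for other numbers), where 10 of 17 fitted best. The replicate block gave 11 calls over the 6 times, 8 late against 0 h, 1 at 8 and 12 h, 7 late against 8 and 12 h and 12 for single times. Without the block, 73.8% of organ pairs were called and 5 members for the response between organs. With 2 or 3 mice per time, small differences may be missed, above all in psWAT and pgWAT.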
